A study of Arabidopsis thaliana with 16 samples.

Results

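The XTH genes of Arabidopsis thaliana encode the xyloglucan endotransglucosylase/hydrolases. The whole family, the 33 genes XTH1 to XTH33, was taken by gene ID from a table of 33602 genes, so no member was left out for its values. The family itself was chosen with earlier results of these data known. The RefSeq annotation of TAIR10.1 holds all 33 IDs, 30 of them under the same XTH symbol and the other 3 as TCH4 (XTH22), XTR6 (XTH23) and EXGT-A3 (XTH27). RNA was sequenced from whole Col-0 seedlings at day 6, raised at 22 °C in continuous white light. The groups were mrg1 mrg2 pif4, mrg1 mrg2, pif4 and WT seedlings, each given 3 h at 28 °C or kept at 22 °C, with 2 libraries per group and 16 in all. No alleles are named in the labels, nor whether a group's libraries stem from different cultures, so p-values measure only the spread between these libraries. The comparisons ask how the family's transcripts respond to warmth, and how that response and the levels depend on MRG1 and MRG2, a pair of chromodomain proteins known to read methylation on histone H3, and on PIF4, which encodes a bHLH transcription factor of warmth-induced elongation.

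Xyloglucan is a hemicellulose that coats and tethers cellulose microfibrils in the primary wall of growing cells. An XTH enzyme cuts a xyloglucan chain and joins the cut end to another chain (endotransglucosylase activity) or, in a few members, to water (hydrolase activity). Through these reactions the family is known to loosen walls, to build new xyloglucan into them and to act in elongating hypocotyls, petioles and roots. The genes fall into group I (XTH1 to XTH11), group II (XTH12 to XTH26) and group III (XTH27 to XTH33), in which XTH31 is known mainly as a hydrolase. Some are known as root genes (XTH12, XTH13, XTH14, XTH17 to XTH21 and XTH26), some as shade-responsive genes (XTH9, XTH15, XTH16, XTH17 and XTH19) and some as genes induced by touch, temperature or hormones (XTH22 to XTH25).

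Libraries held 7186066 to 11363353 counts, so 3 counts, the least taken as detection, correspond to 0.253 to 0.432 CPM. CPM here means counts scaled to a common library size (CPM after TMM normalisation), and RPKM is the same value per kilobase of exon. MRG1 had 3.08 to 6.63 CPM in the 8 libraries labelled with mrg1 mrg2, against 19.6 to 28.3 CPM in the others, and MRG2 had 0.212 to 0.885 CPM, against 8.02 to 11.6 CPM. PIF4 was not called different between libraries labelled pif4 and WT (log2 change −0.21 ± 0.09, adjusted p = 0.319 at 28 °C, and −0.18 ± 0.10, 0.302 at 22 °C). In mrg1 mrg2 pif4 and in mrg1 mrg2, PIF4 was called higher than in WT at 22 °C, and in neither at 28 °C. Without a named allele, counts over the whole PIF4 gene check nothing about the pif4 label, so pif4 below means the libraries labelled so. Throughout, ± with a log2 change gives its standard error, which is approximate. A gene is said to rise, fall or change where its edgeR adjusted p was under 0.05.

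Transcripts of 28 XTH genes were abundant enough to be tested. XTH1 had no read in any library, and XTH2, XTH3, XTH11 and XTH29 had 7, 7, 42 and 11 reads over all libraries. Per exon length, XTH4 was the most abundant, with a mean level of 243 RPKM over the 16 libraries. XTH7 followed with 219, the meristem gene XTH24 with 149, XTH6 with 113 and XTH9 with 92.6 RPKM. At the low end of the tested genes stood XTH25 with 1.28, XTH33 with 1.24 and XTH10 with 1.05 RPKM. Levels thus spanned more than 2 orders of magnitude, and a few members set the family's sum. That sum was 1905 and 1874 CPM at 28 °C against 1533 and 1509 CPM at 22 °C in mrg1 mrg2 pif4, and 1583 and 1644 against 1290 and 1310 CPM in mrg1 mrg2. It was 2166 and 2135 CPM at 28 °C against 1593 and 1547 CPM at 22 °C in pif4, and 2178 and 2085 against 1584 and 1558 CPM in WT. In every genotype both warm libraries lay above both cool ones. At each temperature the sum in mrg1 mrg2 and, by less, that in mrg1 mrg2 pif4 was below that of WT in both libraries.

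**Figure D1:**
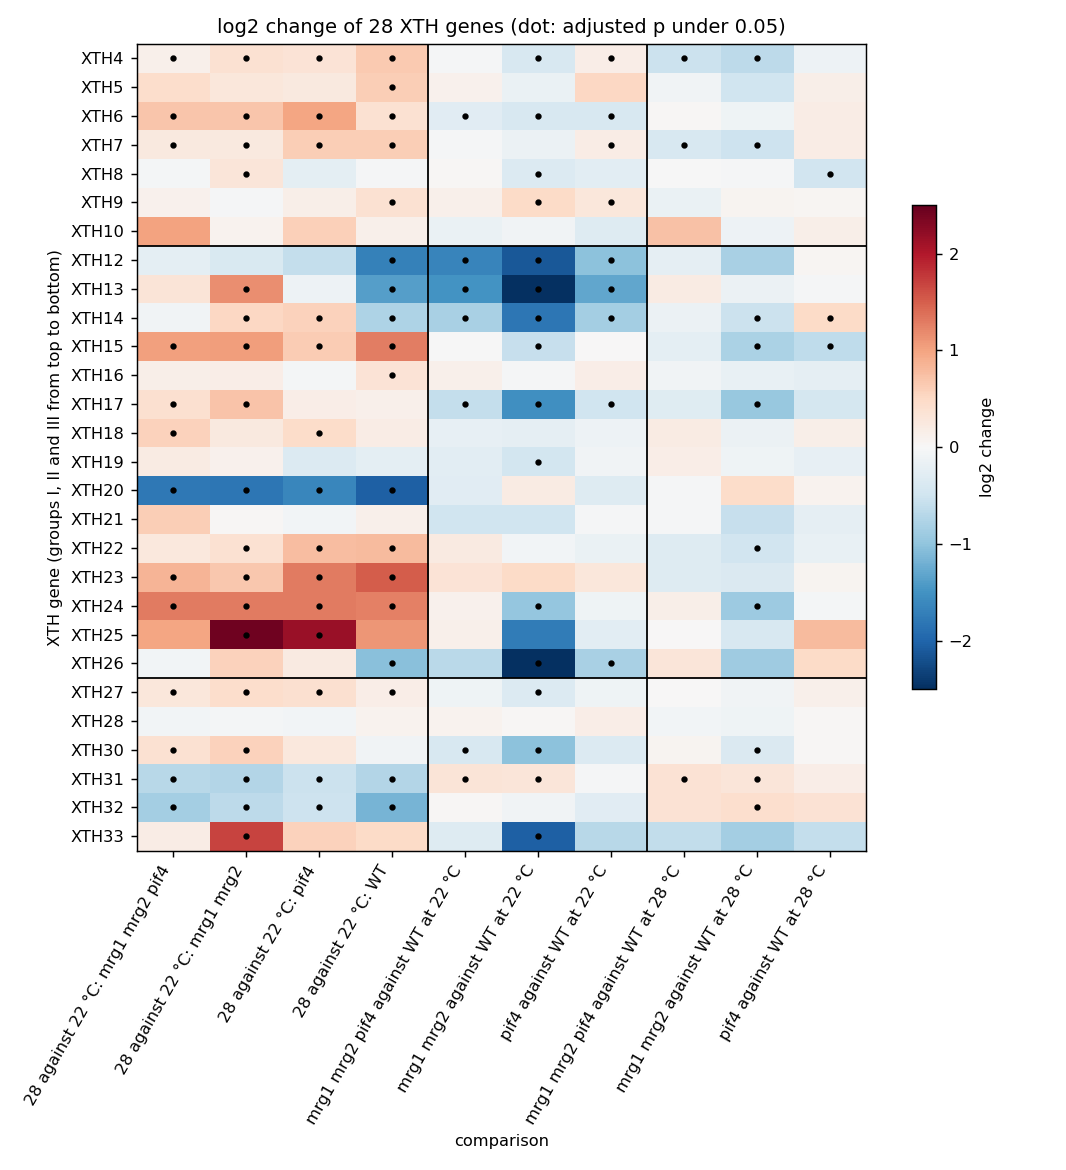
Log2 change of each tested XTH gene (rows; groups I, II and III from top to bottom, parted by lines) in 10 comparisons (columns), with a dot where the adjusted p was under 0.05. The first 4 columns are warm responses, the next 3 mutants against WT at 22 °C and the last 3 mutants against WT at 28 °C; XTH24 rose by 1.25 to 1.30 in all 4 genotypes and XTH20 fell by 1.63 to 2.05.

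Warmth raised more XTH genes than it lowered in each genotype. At 28 °C against 22 °C, 10 members rose and 3 fell in mrg1 mrg2 pif4, where 12.9% of all tested genes rose and 14.3% fell. In mrg1 mrg2, 15 members rose and 3 fell (12.8% and 14.1% of all tested genes). In pif4, 11 rose and 3 fell (13.2% and 12.4%), and in WT 11 rose and 7 fell (13.3% and 13.6%). The share of members that rose, 35.7% in mrg1 mrg2 pif4, 53.6% in mrg1 mrg2 and 39.3% in both pif4 and WT, was thus well above the share of all genes, while the share that fell was 10.7% in each mutant and 25% in WT. The median log2 change of the 28 members was 0.25, 0.34, 0.26 and 0.15 in that order of genotypes, against medians of all tested genes within 0.01 of 0. Of the members, 7 rose in all 4 genotypes (XTH4, XTH6, XTH7, XTH15, XTH23, XTH24 and XTH27) and 3 fell in all 4 (XTH20, XTH31 and XTH32), that is 25% and 10.7% of the tested members, where 5.07% of all tested genes rose and 5.15% fell in all 4. Group I had rises and no falls, with 5 of 7 tested members rising in WT. With DESeq2 the rises of XTH8, XTH13, XTH22, XTH23 and XTH33 in mrg1 mrg2 were not called (adjusted p = 0.0672 to 0.132). Nor were those of XTH17 and XTH30 in mrg1 mrg2 pif4 (0.154 and 0.0646) and of XTH5 and XTH27 in WT (0.0795 and 0.105). The larger share of rises in mrg1 mrg2 thus rests partly on calls that depend on the method.

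XTH24 (AT4G30270, chr4:14819192-14820595), known from meristem and touch responses, gave the most uniform rise. Its level was 330 and 300 CPM at 28 °C against 130 and 127 CPM at 22 °C in mrg1 mrg2 pif4, and 148 and 155 against 58.7 and 64.6 CPM in mrg1 mrg2. It was 277 and 271 CPM at 28 °C against 116 and 107 CPM at 22 °C in pif4, and 293 and 275 against 121 and 118 CPM in WT. All warm libraries stood above the cool ones of their genotype, and the mrg1 mrg2 libraries were the lowest at either temperature. The log2 change was 1.29 ± 0.06 in mrg1 mrg2 pif4, 1.30 ± 0.07 in mrg1 mrg2, 1.30 ± 0.06 in pif4 and 1.25 ± 0.06 in WT (adjusted p = 7.65e-19, 1.76e-18, 1.21e-18 and 1.78e-18), a rise of 2.38 to 2.46-fold. The difference from the WT response was 0.04 ± 0.09, 0.05 ± 0.09 and 0.05 ± 0.09 in these mutants (adjusted p = 0.875, 0.868 and 0.851).

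XTH15 (AT4G14130, chr4:8137020-8138392), a shade-induced gene that PIF factors are known to activate, had 37.3 and 37.6 CPM at 28 °C against 20.3 and 16.4 CPM at 22 °C in mrg1 mrg2 pif4. In mrg1 mrg2 it had 26.4 and 24.6 against 12.7 and 12.1 CPM. The pif4 libraries had 26.6 and 31.3 CPM at 28 °C against 17.8 and 19.1 CPM at 22 °C, and those of WT 45.1 and 44.1 against 20.1 and 17.1 CPM. WT was the highest group at 28 °C, whereas at 22 °C only mrg1 mrg2 stood below the other genotypes. The rise was 1.03 ± 0.11 in mrg1 mrg2 pif4, 1.04 ± 0.12 in mrg1 mrg2, 0.64 ± 0.12 in pif4 and 1.27 ± 0.11 in WT (adjusted p = 3.64e-09, 1.68e-08, 6.46e-05 and 2.22e-11). The rise in pif4 was smaller than that in WT (difference −0.63 ± 0.17, adjusted p = 0.0204), but this call was lost with DESeq2 and when WT replicate 2 or pif4 replicate 2 at 22 °C, or WT replicate 1 or pif4 replicate 1 at 28 °C, was left out (adjusted p = 0.0993, 0.146, 0.11, 0.0625 and 0.133). XTH15 overlaps AT4G14120 on the other strand, which holds 31.4% of its 50-base stretches, so reads of both cannot be told apart there if counting ignored strand. AT4G14120 had 12 to 34 reads per library and was called in none of the comparisons.

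XTH23 (XTR6, AT4G25810, chr4:13128394-13129927), of the stimulus-induced genes, had 9 and 7.16 CPM at 28 °C against 4.7 and 4.24 CPM at 22 °C in mrg1 mrg2 pif4, and 7.93 and 7.71 against 4.66 and 5.09 CPM in mrg1 mrg2. It had 11.4 and 9.37 against 4.73 and 3.84 CPM in pif4, and 9.98 and 10.1 against 3.27 and 3.71 CPM in WT. No warm library overlapped a cool one. The rise was 0.84 ± 0.22 in mrg1 mrg2 pif4, 0.68 ± 0.21 in mrg1 mrg2, 1.30 ± 0.22 in pif4 and 1.52 ± 0.23 in WT (adjusted p = 0.00307, 0.014, 1.16e-05 and 1.87e-06). The mrg1 mrg2 call was lost with DESeq2 (0.0672) and without mrg1 mrg2 replicate 1 at 22 °C (0.107) or at 28 °C (0.0769), and that in mrg1 mrg2 pif4 without its replicate 1 at 28 °C (0.0579). None of the mutants' responses was called different from that of WT (adjusted p = 0.266, 0.145 and 0.821).

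Of the 4 stimulus-induced genes, 2 rose in mrg1 mrg2 pif4, 4 in mrg1 mrg2, 4 in pif4 and 3 in WT, and none fell. Their summed level, most of it XTH24, was 332 to 362 CPM at 28 °C against 152 and 153 CPM at 22 °C in mrg1 mrg2 pif4, and 318 and 330 against 137 and 142 CPM in WT. XTH22, the touch gene TCH4, rose by 0.38 ± 0.14 in mrg1 mrg2, 0.78 ± 0.14 in pif4 and 0.80 ± 0.14 in WT (adjusted p = 0.0393, 3.69e-05 and 1.66e-05), while its log2 change in mrg1 mrg2 pif4 was 0.26 ± 0.13 (0.152). The mrg1 mrg2 call was lost with DESeq2 and without any 1 of the 4 mrg1 mrg2 libraries (0.106 to 0.148). XTH25, with 34 reads at most in a library, rose by 2.43 ± 0.68 in mrg1 mrg2, where the cool libraries had 5 and 0 reads, and by 2.15 ± 0.46 in pif4 (0.00609 and 0.000455). Without mrg1 mrg2 replicate 2 at 22 °C its change in mrg1 mrg2 was 1.52 (0.132), and without replicate 2 at 28 °C it was 2.09 (0.0652). Of 10 other touch and wound genes tested, 1 rose and 1 fell in mrg1 mrg2 pif4, 0 changed in mrg1 mrg2, 2 rose in pif4 and 2 fell in WT, against 12.4% to 14.3% of all tested genes in each direction. The summed level of the 11 genes on that list was 82.8 and 85.1 CPM at 28 °C against 99.1 and 94.2 CPM at 22 °C in mrg1 mrg2 pif4, and 110 and 100 against 105 and 108 CPM in WT.

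Among the most abundant members, XTH4 rose by 0.13 ± 0.05 in mrg1 mrg2 pif4, 0.39 ± 0.05 in mrg1 mrg2, 0.34 ± 0.05 in pif4 and 0.65 ± 0.05 in WT (adjusted p = 0.0349, 4.32e-08, 7.37e-07 and 1.49e-13). The mrg1 mrg2 pif4 libraries had 386 and 373 CPM at 28 °C against 339 and 352 CPM at 22 °C, and those of WT 560 and 542 against 358 and 346 CPM. The small rise in mrg1 mrg2 pif4 was lost under 9 alternatives, each the omission of 1 library, with an adjusted p of up to 0.23 (without its replicate 1 at 22 °C). XTH7 rose by 0.24 ± 0.06 in mrg1 mrg2 pif4, 0.25 ± 0.06 in mrg1 mrg2, 0.61 ± 0.06 in pif4 and 0.62 ± 0.06 in WT. Without mrg1 mrg2 replicate 2 at 28 °C the XTH7 change in mrg1 mrg2 was 0.17, and that call was lost. XTH6 rose by 0.70 ± 0.06, 0.69 ± 0.06, 0.98 ± 0.06 and 0.39 ± 0.06 in that order of genotypes, the smallest of these values being that of WT. XTH27, known from vein development, rose by 0.28 ± 0.06, 0.44 ± 0.06, 0.40 ± 0.06 and 0.16 ± 0.06, the last with an adjusted p of 0.0458 that was above 0.05 in 16 of 20 alternatives (0.0503 to 0.326). XTH9 (0.39 ± 0.07, 3.19e-05), XTH16 (0.35 ± 0.08, 0.00129) and XTH5 (0.61 ± 0.20, 0.0232) were called in WT. XTH16 lost its call without WT replicate 2 at 22 °C (0.0617), and XTH5 with DESeq2 (0.0795), without WT replicate 1 at 22 °C (0.193) and without WT replicate 2 at 28 °C (0.243).

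**Figure D2:**
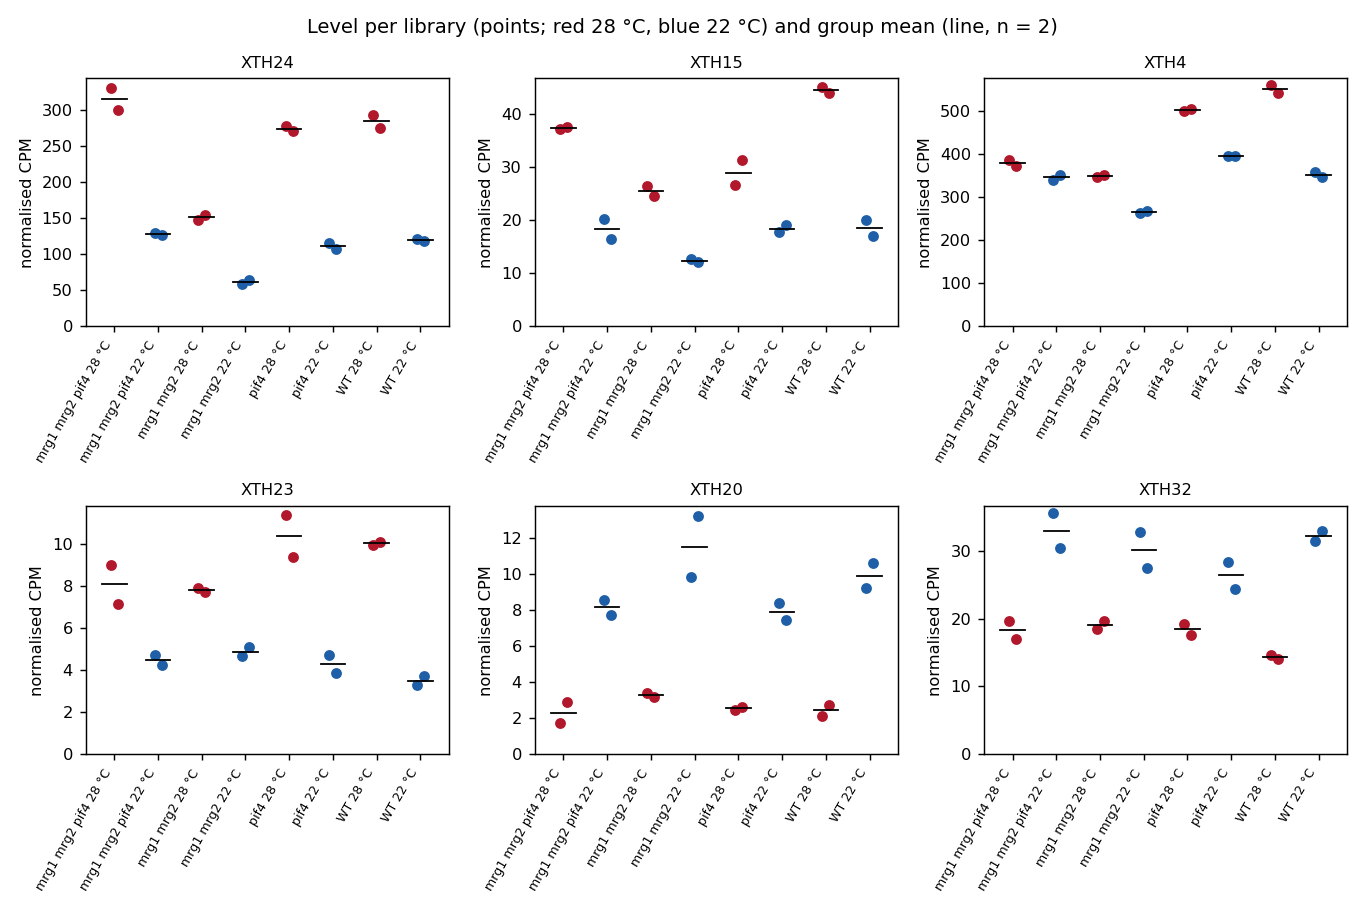
Level of 6 XTH genes in normalised CPM (vertical axes, linear, from 0) in each library (points; red 28 °C, blue 22 °C) of the 8 groups (horizontal axes), with the group mean as a line (n = 2 libraries). XTH24, XTH15, XTH4 and XTH23 are higher at 28 °C and XTH20 and XTH32 lower in each genotype; XTH24 is lowest in mrg1 mrg2, with 148 and 155 CPM at 28 °C and 58.7 and 64.6 CPM at 22 °C.

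The falls shared by the genotypes were those of XTH20, XTH31 and XTH32. XTH20 (AT5G48070, chr5:19481897-19483527), known from the vascular tissue of roots, had 1.71 and 2.88 CPM at 28 °C against 8.55 and 7.74 CPM at 22 °C in mrg1 mrg2 pif4, and 3.37 and 3.18 against 9.84 and 13.2 CPM in mrg1 mrg2. It had 2.47 and 2.62 against 8.37 and 7.47 CPM in pif4, and 2.11 and 2.74 against 9.22 and 10.6 CPM in WT. Warm and cool libraries stood far apart in every genotype. The log2 change was −1.78 ± 0.26, −1.80 ± 0.23, −1.63 ± 0.27 and −2.05 ± 0.27 in mrg1 mrg2 pif4, mrg1 mrg2, pif4 and WT (adjusted p = 9.88e-07, 6e-08, 9.85e-06 and 1.12e-07). Levels of XTH20 were 3.43, 3.48, 3.1 and 4.13-fold lower at 28 °C, and all 4 calls held in each of 20 alternatives.

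XTH32 (AT2G36870, chr2:15472607-15474828) had 19.7 and 17 CPM at 28 °C against 35.5 and 30.4 CPM at 22 °C in mrg1 mrg2 pif4, 18.5 and 19.7 against 32.8 and 27.5 CPM in mrg1 mrg2, 19.2 and 17.6 against 28.4 and 24.3 CPM in pif4, and 14.6 and 14 against 31.4 and 32.9 CPM in WT. The warm WT libraries were the lowest of all 16. Its log2 change was −0.85 ± 0.12, −0.66 ± 0.12, −0.51 ± 0.12 and −1.17 ± 0.13 in that order (adjusted p = 4.35e-07, 2.96e-05, 0.00178 and 1.85e-09). The response differed from that of WT by 0.32 ± 0.17 in mrg1 mrg2 pif4, 0.51 ± 0.17 in mrg1 mrg2 and 0.66 ± 0.18 in pif4 (adjusted p = 0.353, 0.0919 and 0.0228). The call in pif4 was lost with DESeq2 (0.118), without WT replicate 2 (0.0856) or pif4 replicate 2 (0.16) at 22 °C, and without WT replicate 1 (0.0587), WT replicate 2 (0.0932) or pif4 replicate 1 (0.134) at 28 °C. XTH31, the hydrolase, fell by 0.69 ± 0.08, 0.74 ± 0.08, 0.54 ± 0.08 and 0.73 ± 0.08 in the same order of genotypes. XTH31 and XTH32, which phylogenies place side by side in group III, thus both fell in each genotype, while XTH27 of group III rose.

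The other falls were of root genes in WT. XTH12 (AT5G57530, chr5:23300321-23301689), XTH13 (AT5G57540, chr5:23302787-23304095) and XTH14 (AT4G25820, chr4:13130291-13131860) are expressed in roots, and XTH14 and XTH26 (AT4G28850, chr4:14244290-14246037) are known from root hairs. XTH12 had 3.65 and 2.36 CPM at 28 °C and 3.53 and 3.39 CPM at 22 °C in mrg1 mrg2 pif4, 2.28 and 1.47 and 3 and 1.99 CPM in mrg1 mrg2, 3.7 and 3.31 and 5.82 and 4.95 CPM in pif4, and 3.88 and 2.88 and 12.1 and 9.88 CPM in WT. XTH13 had 2.96 and 3.14 CPM at 28 °C and 2.56 and 2.33 CPM at 22 °C in mrg1 mrg2 pif4, 2.7 and 2.04 and 0.622 and 1.55 CPM in mrg1 mrg2, 2.57 and 2.62 and 2.67 and 2.93 CPM in pif4, and 2.82 and 2.45 and 7.47 and 6.38 CPM in WT. In both genes the cool WT libraries stood above all other libraries, of which those of mrg1 mrg2 at 22 °C were the lowest for XTH13.

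XTH14 had 24.3 and 25.1 CPM at 28 °C and 25.2 and 27.3 CPM at 22 °C in mrg1 mrg2 pif4, 19.1 and 18.5 and 13.8 and 12.6 CPM in mrg1 mrg2, 36.3 and 40 and 25.8 and 25.4 CPM in pif4, and 27.1 and 27.4 and 43.7 and 48.9 CPM in WT. XTH26 had 5.24 and 5.5 CPM at 28 °C and 4.7 and 6.58 CPM at 22 °C in mrg1 mrg2 pif4, 1.86 and 2.95 and 0.622 and 2.54 CPM in mrg1 mrg2, 5.76 and 6.34 and 4.61 and 5.55 CPM in pif4, and 4.7 and 3.89 and 9.11 and 8.85 CPM in WT. Again the highest libraries were those of WT at 22 °C, and mrg1 mrg2 was lowest at both temperatures. With warmth XTH12 fell by 1.68 ± 0.26, XTH13 by 1.38 ± 0.29, XTH14 by 0.77 ± 0.10 and XTH26 by 1.05 ± 0.27 in WT (adjusted p = 2.22e-06, 0.000299, 1.52e-07 and 0.00297). In mrg1 mrg2, XTH13 rose by 1.16 ± 0.41 and XTH14 by 0.51 ± 0.12 (0.0299 and 0.000881), and in pif4 XTH14 rose by 0.57 ± 0.10 (4.16e-05). The XTH13 call in mrg1 mrg2 was lost with DESeq2 (0.0816), without mrg1 mrg2 replicate 1 at 22 °C (log2 change 0.64, 0.376) and without replicate 1 at 28 °C (0.92, 0.236).

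At 22 °C these genes were lower in the mutants than in WT. XTH12 was lower by a log2 change of −1.66 ± 0.24 in mrg1 mrg2 pif4, −2.12 ± 0.26 in mrg1 mrg2 and −1.03 ± 0.23 in pif4 (adjusted p = 2.61e-06, 4.21e-08 and 0.00126). For XTH13 the values were −1.49 ± 0.28, −2.67 ± 0.33 and −1.29 ± 0.27 (0.000137, 6.24e-08 and 0.000854), and for XTH14 −0.82 ± 0.10, −1.81 ± 0.11 and −0.85 ± 0.10 (6.78e-08, 9.49e-16 and 4.57e-08). For XTH26 they were −0.67 ± 0.25, −2.52 ± 0.32 and −0.81 ± 0.25 (0.06, 8.87e-08 and 0.0306), so the gene was called lower in mrg1 mrg2 and pif4. The pif4 call of XTH12 was lost without pif4 replicate 2 at 22 °C (0.0559), and that of XTH26 with DESeq2 and without either pif4 or either WT library at 22 °C (0.0932 to 0.205). All 3 comparisons rest on the same WT libraries.

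Root hair markers were likewise highest in WT at 22 °C. The sum of 8 root hair genes (EXPA7, EXPA18, COBL9, LRX1, PRP3, MRH6, RSL4 and RHD6) was 76.7 and 80 CPM at 28 °C and 81.5 and 74.9 CPM at 22 °C in mrg1 mrg2 pif4, 57.4 and 51.5 and 43.5 and 46 CPM in mrg1 mrg2, 89.8 and 90.1 and 77.5 and 76 CPM in pif4, and 73 and 65.6 and 133 and 137 CPM in WT. At 22 °C, 4 of the 8 were lower in mrg1 mrg2 pif4 than in WT, 7 in mrg1 mrg2 and 5 in pif4 (7.54%, 12.2% and 5.05% of all tested genes), and 5 fell with warmth in WT (13.6%). None of the 8 was at 0 in any library. The sum of 13 other root genes, of the endodermis, stele and root tip, varied less: from 156 to 168 CPM at 28 °C and 152 to 156 CPM at 22 °C in mrg1 mrg2 pif4, 130 to 131 and 137 to 144 CPM in mrg1 mrg2, 156 to 166 and 154 to 156 CPM in pif4, and 149 to 154 and 175 to 180 CPM in WT. Of the 12 that were tested, 3 were lower in mrg1 mrg2 pif4, 5 in mrg1 mrg2 and 1 in pif4 than in WT at 22 °C, that in pif4 being near the share of all genes. With warmth 1 of the 8 root hair genes rose and none of the 12 others was called in mrg1 mrg2, where XTH13 and XTH14 rose. In pif4, where XTH14 rose, 2 of the 8 and 2 of the 12 rose. Of all tested genes, 12.8% rose in mrg1 mrg2 and 13.2% in pif4. Whole seedlings were sequenced, so fewer cells of a root type and less RNA per cell cannot be told apart, and the part of root content in the values of XTH12, XTH13, XTH14, XTH17 and XTH26 was not tested.

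**Figure D3:**
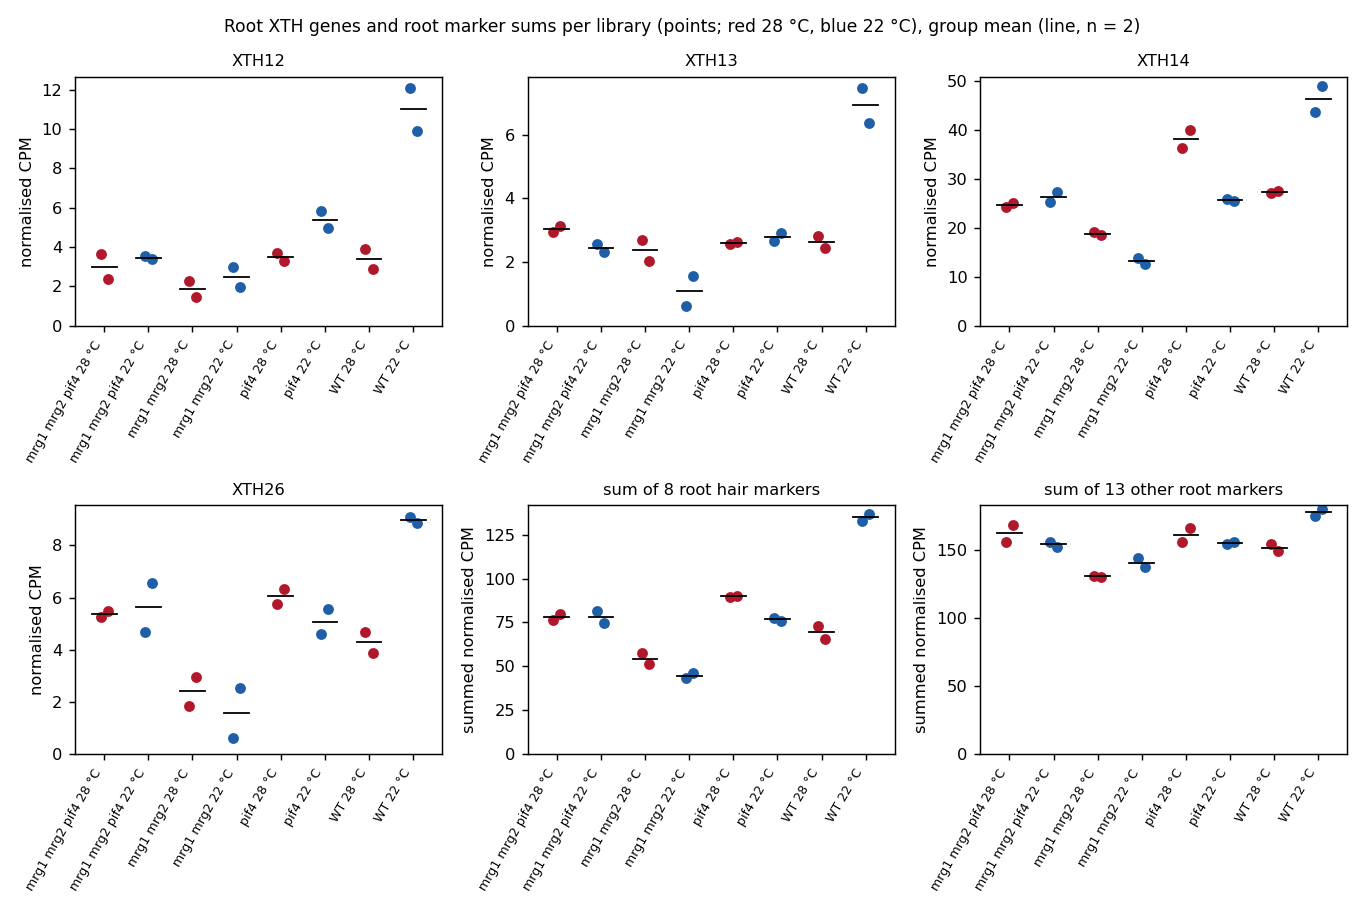
Level of XTH12, XTH13, XTH14 and XTH26 and the summed level of 8 root hair markers and 13 other root markers, in normalised CPM (vertical axes, linear, from 0), in each library (points; red 28 °C, blue 22 °C) of the 8 groups, with the group mean as a line (n = 2 libraries). The WT libraries at 22 °C are the highest in each panel (133 and 137 CPM for the root hair sum) and mrg1 mrg2 is the lowest for XTH14, XTH26 and both sums.

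The sequences before the starts of 4 root genes are shown because they are the most alike in the family. Among all 528 pairs of the 250-base windows directly upstream of the 33 annotated starts (RefSeq, TAIR10.1), the best local alignment was that of XTH17 and XTH18 and the next that of XTH13 and XTH14. The windows are chr1:24256804-24257053 (plus strand) for XTH17, chr4:14827212-14827461 (minus strand) for XTH18, chr5:23304096-23304345 (minus strand) for XTH13 and chr4:13130041-13130290 (plus strand) for XTH14. They read 5′ to 3′ towards the gene, with the aligned block in capitals.
XTH17: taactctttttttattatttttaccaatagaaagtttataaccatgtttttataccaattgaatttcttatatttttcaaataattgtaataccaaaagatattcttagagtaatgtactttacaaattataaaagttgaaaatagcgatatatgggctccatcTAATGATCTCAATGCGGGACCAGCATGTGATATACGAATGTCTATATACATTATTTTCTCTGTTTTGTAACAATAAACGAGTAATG
XTH18: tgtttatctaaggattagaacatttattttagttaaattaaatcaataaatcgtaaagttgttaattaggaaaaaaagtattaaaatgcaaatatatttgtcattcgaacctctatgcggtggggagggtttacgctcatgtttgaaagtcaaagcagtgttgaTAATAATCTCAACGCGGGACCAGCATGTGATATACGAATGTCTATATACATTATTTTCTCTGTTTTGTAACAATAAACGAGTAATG
XTH13: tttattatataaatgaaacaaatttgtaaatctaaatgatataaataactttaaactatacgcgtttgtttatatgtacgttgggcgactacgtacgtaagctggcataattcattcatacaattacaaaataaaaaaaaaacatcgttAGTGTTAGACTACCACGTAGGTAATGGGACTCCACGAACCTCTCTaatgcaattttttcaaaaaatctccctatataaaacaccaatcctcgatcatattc
XTH14: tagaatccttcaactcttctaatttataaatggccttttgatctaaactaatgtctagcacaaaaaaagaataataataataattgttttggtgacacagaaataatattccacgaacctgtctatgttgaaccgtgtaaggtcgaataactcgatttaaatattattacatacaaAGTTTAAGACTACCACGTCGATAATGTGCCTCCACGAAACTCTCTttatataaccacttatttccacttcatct
In XTH17 and XTH18 the block covered the last 86 bases before the start, with 84 identical (97.7%) and an unbroken common run of 73 bases that occurred in 2 of 27444 promoter windows. In XTH13 and XTH14 it held 45 aligned columns, of which 38 (84.4%) were identical, and its longest common run of 12 bases also occurred in 2 windows.

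XTH17 and XTH18, both known from elongating root epidermis, were called alike in some comparisons and unlike in others. XTH17 (AT1G65310, chr1:24257054-24258506) had 16.6 and 16.6 CPM at 28 °C and 13 and 12.2 CPM at 22 °C in mrg1 mrg2 pif4, 9.61 and 12 and 6.32 and 6.75 CPM in mrg1 mrg2, 15.7 and 14.5 and 14.9 and 12.2 CPM in pif4, and 22.9 and 18 and 19.5 and 18.5 CPM in WT. The mrg1 mrg2 libraries were the lowest 4 of the 16. At 22 °C XTH17 was lower than in WT by −0.59 ± 0.15 in mrg1 mrg2 pif4, −1.54 ± 0.16 in mrg1 mrg2 and −0.49 ± 0.15 in pif4 (adjusted p = 0.00387, 2.01e-09 and 0.0221). XTH18 had 17.4 to 24.8 CPM in mrg1 mrg2 and 24.2 to 25 CPM in WT at 22 °C, a log2 change of −0.22 ± 0.12 (0.211). With warmth XTH17 rose by 0.40 ± 0.15 in mrg1 mrg2 pif4 and 0.71 ± 0.18 in mrg1 mrg2 (0.042 and 0.00184), the call in mrg1 mrg2 pif4 being lost with DESeq2 and without any 1 of its 4 libraries (0.0919 to 0.215). XTH18 rose in mrg1 mrg2 pif4 and in pif4, with values given below with its neighbours. At 28 °C both genes were called higher in mrg1 mrg2 pif4 than in mrg1 mrg2, calls that were both lost without mrg1 mrg2 replicate 1. The change of one gene was not tested against that of the other. XTH17 lost its call in mrg1 mrg2 pif4 without replicate 2 of that genotype at 22 °C (0.0563), and in pif4 with DESeq2 and without WT replicate 1, WT replicate 2 or pif4 replicate 2 (0.0755 to 0.333). The reads of both can be told apart nearly everywhere: 0.182% of the 50-base stretches of XTH17 and 1.7% of those of XTH18 occur in XTH19 as well.

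Motifs were searched on both strands in the same windows. The G-box CACGTG, a known PIF binding motif, was in 6.49% of the 27444 windows and in 0 of the 33 members. The related CACATG was in 11.1% of windows and in 5 members (XTH17, XTH18, XTH25, XTH26 and XTH33). It lies 63 bases before the start in both XTH17 and XTH18, inside the shared block. In windows of 1000 bases CACGTG was in 14.8% and in 4 members (XTH7, XTH8, XTH25 and XTH30), and CACATG in 37.7% and in 13 members (39.4%). A heat shock element (GAANNTTCNNGAA) was in 0.386% of 250-base windows and 1.72% of 1000-base windows, and a root hair element in 0.754% and 2.9%; neither was in any member's window.

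Over the whole family, mrg1 mrg2 had the most lower members at 22 °C. In mrg1 mrg2 against WT, 2 members were higher and 14 lower, 6 of the 14 being root genes, where 12.3% of all tested genes were higher and 12.2% lower. For mrg1 mrg2 pif4 the counts were 1 and 6 (7.87% and 7.54% of all genes), and for pif4 3 and 6 (5.8% and 5.05%). The median log2 change of the members was −0.07 in mrg1 mrg2 pif4, −0.37 in mrg1 mrg2 and −0.14 in pif4, against 0.00 for all genes. XTH24 was 1.94-fold lower in mrg1 mrg2 (−0.96 ± 0.07, adjusted p = 3.46e-14), and differed from WT by 0.11 ± 0.06 in mrg1 mrg2 pif4 and −0.10 ± 0.06 in pif4 (0.29 and 0.372). XTH30 (AT1G32170, chr1:11575320-11578030), known from salt responses, had 22 and 22.2 CPM in mrg1 mrg2 pif4, 14.9 and 13.8 CPM in mrg1 mrg2, 24.1 and 22.5 CPM in pif4 and 30.2 and 28.6 CPM in WT at 22 °C. All 3 mutants lay below WT and mrg1 mrg2 below the others, with log2 changes of −0.41 ± 0.12, −1.03 ± 0.13 and −0.34 ± 0.12 (0.0127, 3.39e-08 and 0.0615). The mrg1 mrg2 pif4 call was lost with DESeq2 (0.0573), without WT replicate 1 (0.102) and without either of its own libraries (0.0752 and 0.0736). With warmth XTH30 rose by 0.38 ± 0.12 in mrg1 mrg2 pif4 and 0.58 ± 0.13 in mrg1 mrg2 (0.013 and 0.000548), the call in mrg1 mrg2 pif4 being lost with DESeq2 and without 3 of its 4 libraries (0.0646 to 0.0949).

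Further members lower in mrg1 mrg2 at 22 °C were XTH4 (−0.41 ± 0.05, adjusted p = 2.69e-08), XTH6 (−0.40 ± 0.06, 2.65e-06), XTH27 (−0.35 ± 0.06, 4.39e-05), XTH15 (−0.58 ± 0.13, 0.00078), XTH8, XTH33 and the root gene XTH19. The calls of XTH8, XTH19 and XTH33 (0.0157, 0.0165 and 0.00625) were each lost when 1 of 2 libraries was left out: WT replicate 2 or mrg1 mrg2 replicate 1 for XTH8 (0.112 and 0.201), WT replicate 2 or mrg1 mrg2 replicate 2 for XTH19 (0.165 and 0.132) and for XTH33 (0.0857 and 0.105). DESeq2 did not call XTH8 and XTH19 either (0.0594 and 0.0753). XTH33, whose protein is known to be anchored in the plasma membrane, had 6 and 2 reads in the mrg1 mrg2 libraries, against 13 and 20 in those of WT. Higher in mrg1 mrg2 were XTH9 (0.48 ± 0.07, 1.28e-06) and the hydrolase gene XTH31 (0.31 ± 0.08, 0.00208). XTH31 was higher in mrg1 mrg2 pif4 too (0.33 ± 0.08, 0.00184), and both of its calls were lost without WT replicate 1 (0.0653 and 0.0677). In pif4, XTH4, XTH7 and XTH9 were higher by 0.17 ± 0.05, 0.19 ± 0.06 and 0.29 ± 0.07 (0.0162, 0.02 and 0.00377), calls that were each lost when single libraries were left out (highest adjusted p = 0.172, 0.129 and 0.164). The XTH7 call was lost on omitting any single WT or pif4 library at 22 °C, that of XTH4 on omitting WT replicate 2 or either pif4 library, and that of XTH9 on omitting replicate 2 of either genotype. XTH6 was lower in pif4 by −0.40 ± 0.06 (6.78e-06).

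At 28 °C XTH4 and XTH7 were lower than in WT in mrg1 mrg2 pif4 and mrg1 mrg2, and XTH15 was lower in mrg1 mrg2 and pif4. In mrg1 mrg2 pif4 against WT, 1 member was higher and 2 were lower, where 5.29% and 6.55% of all tested genes were. In mrg1 mrg2, 2 were higher and 8 lower (6.69% and 7.41%), and in pif4 1 was higher and 2 were lower (1.17% and 0.423%). XTH4 was lower by −0.54 ± 0.05 in mrg1 mrg2 pif4 and −0.66 ± 0.05 in mrg1 mrg2 (adjusted p = 1.19e-10 and 5.7e-13), and XTH7 by −0.41 ± 0.06 and −0.51 ± 0.06 (1.1e-06 and 1.23e-08). In pif4 the values were −0.13 ± 0.05 for XTH4 and 0.19 ± 0.06 for XTH7 (0.195 and 0.0895). XTH24 was 1.88-fold lower in mrg1 mrg2 (−0.91 ± 0.06, 9.3e-14), XTH17 1.92-fold (−0.94 ± 0.15, 1.82e-05) and XTH15 1.75-fold (−0.80 ± 0.11, 1.23e-06). XTH14 was lower in mrg1 mrg2 (−0.54 ± 0.11, 0.000547) and higher in pif4 (0.48 ± 0.10, 0.00534). XTH15 was lower in pif4 (−0.63 ± 0.11, 0.000359), as was XTH8 (−0.48 ± 0.11, 0.014).

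None of the 3 pif4 calls at 28 °C held in all alternatives. That of XTH15 was lost without pif4 replicate 1 (adjusted p = 0.0516), that of XTH14 without WT replicate 1, WT replicate 2 or pif4 replicate 2 (0.0709, 0.0658 and 0.152), and that of XTH8 with DESeq2 and without any 1 of the 4 libraries (0.0668 to 0.169). Seed storage genes stood out in the same pif4 libraries, with 3 of 4 tested genes higher than in WT and a sum over the 6 listed of 70.6 and 72.6 CPM in pif4, against 6.58 and 8.07 CPM in WT. CRU2, also on that list, had no read in the pif4 libraries. The part of that difference in the XTH values was not tested. In mrg1 mrg2 the calls of XTH22 (−0.48 ± 0.13, 0.00956), XTH30 (−0.36 ± 0.12, 0.0397), XTH31 (0.30 ± 0.08, 0.0103) and XTH32 (0.42 ± 0.13, 0.0296) were each lost when single libraries were left out (highest adjusted p = 0.217, 0.683, 0.186 and 0.147). That of XTH32 was lost without any 1 of the 4 libraries of the 2 groups, and those of XTH30 and XTH32 also with DESeq2 (0.145 and 0.13). For XTH30, leaving out WT replicate 1 took the log2 change to −0.12, and the libraries of the groups overlapped. XTH31 was higher in mrg1 mrg2 pif4 by 0.37 ± 0.08 (0.00182), a call lost without WT replicate 2 (0.0865).

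Several members that were low in mrg1 mrg2 were higher in mrg1 mrg2 pif4. At 28 °C, 7 members were higher and 1 lower in mrg1 mrg2 pif4 than in mrg1 mrg2 (4.67% and 5.29% of all tested genes). XTH24 led with a 2.08-fold higher level (1.06 ± 0.06, adjusted p = 2.07e-15), and XTH15 was higher by 0.55 ± 0.11 (0.000454). XTH17 (0.63 ± 0.15, 0.00359), XTH26 (1.20 ± 0.31, 0.00804), XTH14 (0.39 ± 0.11, 0.0125), XTH30 (0.42 ± 0.12, 0.0152) and XTH18 (0.35 ± 0.12, 0.0465) were higher too, and XTH9 was lower (−0.22 ± 0.07, 0.0326). Each of these 6 was lost without mrg1 mrg2 replicate 1 or, for XTH9, replicate 2 at 28 °C (adjusted p = 0.135, 0.194, 0.0616, 0.247, 0.303 and 0.237 in that order), and DESeq2 called 4 members higher and 0 lower. At 22 °C, a comparison added after the values were seen, 9 members were higher and 1 lower (4.88% and 4.94% of all genes). Among them were XTH24 (1.06 ± 0.07, 7.38e-15), XTH14 (0.99 ± 0.11, 2.86e-08), XTH17 (0.95 ± 0.17, 0.000147) and XTH26 (1.85 ± 0.35, 0.000238; 0.0509 without mrg1 mrg2 replicate 1).

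In mrg1 mrg2 pif4 against pif4 at 28 °C, 3 members were higher and 3 lower (3.4% and 6.03% of all tested genes). XTH4 (−0.40 ± 0.05, adjusted p = 1.03e-07), XTH7 (−0.60 ± 0.06, 3.85e-10) and XTH14 (−0.62 ± 0.10, 3.18e-05) were lower, and these 3 calls held in each of 20 alternatives. XTH8 (0.48 ± 0.11, 0.00344), XTH15 (0.38 ± 0.11, 0.0214) and XTH24 (0.20 ± 0.06, 0.0307) were higher, and each of these was lost without pif4 replicate 1 at 28 °C (0.054, 0.318 and 0.0991). The XTH15 call was lost also with DESeq2 (0.106) and without either mrg1 mrg2 pif4 library at 28 °C (0.0839 and 0.111). That of XTH24 was lost also without pif4 replicate 2 (0.152) or mrg1 mrg2 pif4 replicate 1 (0.389) at 28 °C.

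Whether the levels of mrg1 mrg2 pif4 followed from adding the log2 effects of mrg1 mrg2 and of pif4 was tested as a departure from that sum. At 28 °C, 4 members departed upwards and 0 downwards, where 1.17% and 2.55% of all tested genes did. These were XTH15 (1.18 ± 0.15, adjusted p = 2.09e-06), XTH24 (1.11 ± 0.09, 2.18e-11), XTH17 (1.07 ± 0.21, 0.00098) and XTH4 (0.26 ± 0.07, 0.0232). The XTH4 call was lost without WT, pif4 or mrg1 mrg2 pif4 replicate 1 at 28 °C (0.0939, 0.0946 and 0.121). DESeq2 also gave 4 members upwards and 0 downwards. At 22 °C, again added after the values were seen, 13 members departed upwards and 1 downwards (6.11% and 7.05% of all genes). The largest of the upward values were those of the root genes XTH26 (2.66 ± 0.43, 2.15e-05), XTH13 (2.48 ± 0.49, 0.000393) and XTH14 (1.84 ± 0.15, 1.4e-11) and of XTH33 (2.42 ± 0.75, 0.0259, lost under 6 alternatives with up to 0.152), and 6 of the 8 root hair markers departed upwards with them. XTH24 departed by 1.16 ± 0.09 (5.4e-12) and XTH17 by 1.44 ± 0.23 (1.35e-05). XTH9 departed downwards (−0.64 ± 0.10, 9.8e-06).

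Differences in warm response from WT were called for abundant group I genes, root genes and some others, among them the shade genes XTH15 and XTH16 and the group III genes XTH30 and XTH32. All of these differences rest on the same WT libraries. For mrg1 mrg2 pif4, 4 members had a more positive and 2 a more negative response (2.37% and 3.47% of all tested genes). For mrg1 mrg2 the counts were 5 and 3 (2.37% and 2.44%), and for pif4 3 and 3 (2.34% and 1.76%). XTH4 responded less in each mutant, by −0.51 ± 0.07 in mrg1 mrg2 pif4, −0.25 ± 0.07 in mrg1 mrg2 and −0.31 ± 0.07 in pif4 (adjusted p = 2.19e-06, 0.0226 and 0.00503). XTH7 responded less by −0.38 ± 0.08 in mrg1 mrg2 pif4 and −0.37 ± 0.08 in mrg1 mrg2 (0.00131 and 0.00316), and by −0.01 ± 0.08 in pif4 (0.982). XTH6 responded more, by 0.31 ± 0.08, 0.30 ± 0.08 and 0.59 ± 0.08 (0.0195, 0.0313 and 1.09e-05). The mrg1 mrg2 difference of XTH4 was lost without any 1 of 4 libraries (0.0604 to 0.112), and the XTH6 differences of mrg1 mrg2 pif4 and mrg1 mrg2 without any 1 of 5 and 8 libraries (0.0517 to 0.1, and 0.0511 to 0.152).

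Among the root genes, XTH14 fell in WT and differed from that response by 0.68 ± 0.15 in mrg1 mrg2 pif4, 1.27 ± 0.15 in mrg1 mrg2 and 1.33 ± 0.14 in pif4 (adjusted p = 0.00192, 4.27e-07 and 3.14e-08), calls that held in all 20 alternatives. XTH13 differed by 1.70 ± 0.44 in mrg1 mrg2 pif4 and 2.54 ± 0.50 in mrg1 mrg2 (0.0113 and 0.00111), and by 1.26 ± 0.45 in pif4 (0.116). XTH12 differed by 1.44 ± 0.41 in mrg1 mrg2 pif4 (0.0254), and XTH26 by 1.63 ± 0.49 in mrg1 mrg2 (0.0459). The calls of XTH12, of XTH26 and of XTH13 in mrg1 mrg2 pif4 were lost with DESeq2 (0.0909, 0.0821 and 0.0695) and without 5, 8 and 2 single libraries (up to 0.224, 0.371 and 0.0671). Root hair markers moved alongside: 2 of 8 had a more positive warm response in mrg1 mrg2 pif4 than in WT, 3 in mrg1 mrg2 and 4 in pif4, and their part in the XTH values was not tested. XTH30 (0.67 ± 0.17, 0.0155) and XTH9 (−0.41 ± 0.10, 0.0079) differed in mrg1 mrg2 and XTH16 (−0.39 ± 0.12, 0.0441) in pif4. The calls of XTH30 and XTH16 were lost with DESeq2 (adjusted p = 0.0705 and 0.156), and that of XTH16 also without the filter on low counts (0.0658). These 3 were lost, among other libraries, without WT replicate 2 at 28 °C (XTH30, difference 0.49) or at 22 °C (XTH9 and XTH16, −0.33 and −0.31).

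Neighbouring XTH genes did not all share 1 response in WT, where XTH12 and XTH13 fell together. In each mutant genotype some neighbours rose together. On the minus strand of chromosome 5 lie 4 members in a row, in the order XTH12, XTH13, XTH25 and XTH22, with 1097, 686 and 565 bases between them and 1 other gene, AT5G57535, in the first gap. In WT the log2 warm changes along this row were −1.68 ± 0.26, −1.38 ± 0.29, 1.10 ± 0.51 and 0.80 ± 0.14, so its root genes fell, its touch gene TCH4 rose and XTH25 passed no test (adjusted p = 0.11). In mrg1 mrg2, XTH13, XTH25 and XTH22 of this row were called higher, of which DESeq2 did not call XTH13 and XTH22. On chromosome 4, XTH23 and XTH14 follow each other on the plus strand with 363 bases between them, with log2 warm changes of 0.84 ± 0.22 and −0.09 ± 0.10 in mrg1 mrg2 pif4, 0.68 ± 0.21 and 0.51 ± 0.12 in mrg1 mrg2, 1.30 ± 0.22 and 0.57 ± 0.10 in pif4, and 1.52 ± 0.23 and −0.77 ± 0.10 in WT. Next to XTH24 on that chromosome lie XTH18 (5161 bases away) and XTH19 (1500 bases further). XTH18 rose by 0.58 ± 0.12 in mrg1 mrg2 pif4 and 0.45 ± 0.12 in pif4 (0.000301 and 0.00536), the call in pif4 being lost without pif4 replicate 1 at 22 °C (0.071) or 28 °C (0.139). XTH19 was called in no warm response (0.0836 to 0.63).

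**Figure D4:**
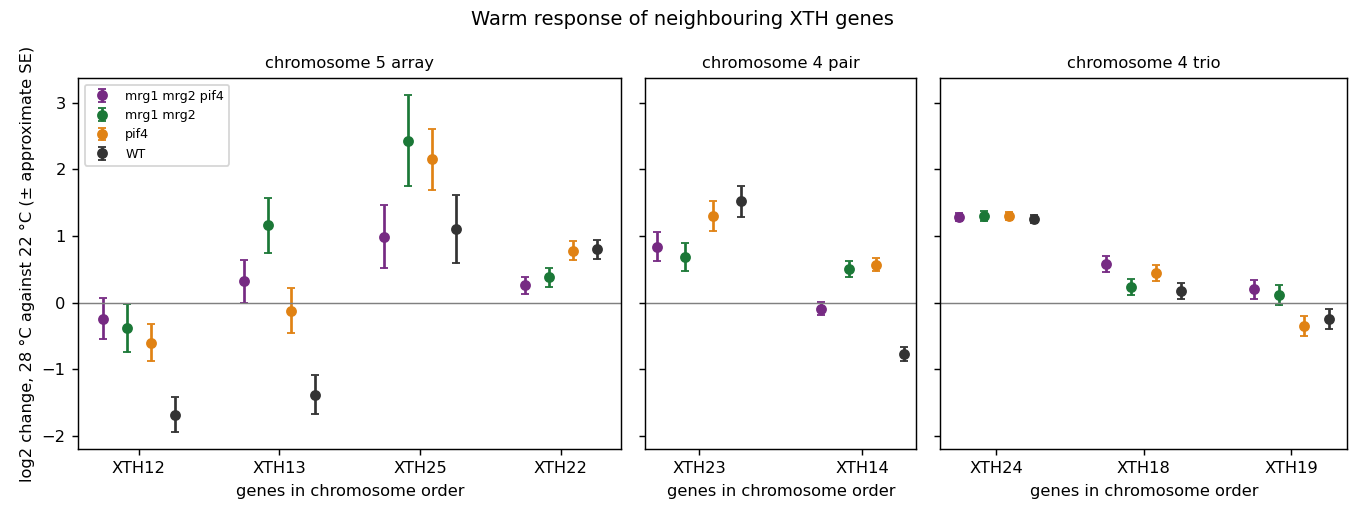
Warm response (log2 change of 28 °C against 22 °C, vertical axis, with bars of ± 1 approximate SE) of XTH genes that neighbour each other, in chromosome order (horizontal axis), for mrg1 mrg2 pif4, mrg1 mrg2, pif4 and WT (colours). In WT the row on chromosome 5 runs from −1.68 for XTH12 to 0.80 for XTH22, and XTH23 and XTH14 have opposite signs (1.52 and −0.77).

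Among genes of the enzymes that make xyloglucan, XXT5 and MUR3 fell with warmth in each genotype. Of 16 synthesis genes 15 were tested; 1 rose and 3 fell with warmth in mrg1 mrg2 pif4, 1 rose and 4 fell in mrg1 mrg2, 0 rose and 3 fell in pif4, and 1 rose and 3 fell in WT. With 12.8% to 13.3% of all tested genes rising and 12.4% to 14.3% falling, these counts were not far from the background. Their median log2 change was −0.18, −0.18, −0.09 and −0.20. XXT5, which adds xylose to the glucan backbone, fell by 0.30 ± 0.08, 0.35 ± 0.09, 0.52 ± 0.09 and 0.31 ± 0.08 (adjusted p = 0.00686, 0.00185, 1.2e-05 and 0.0054). MUR3, a galactosyltransferase of the side chains, fell by 0.39 ± 0.11, 0.31 ± 0.11, 0.30 ± 0.11 and 0.31 ± 0.11 (0.00644, 0.0341, 0.0416 and 0.0307). CSLC4, the main synthase of the backbone, rose in WT (0.37 ± 0.09, 0.00135). Its warm response differed from that of WT by −0.45 ± 0.12 in mrg1 mrg2 pif4, −0.16 ± 0.12 in mrg1 mrg2 and −0.28 ± 0.12 in pif4 (0.0189, 0.558 and 0.229). The summed level of the list was 402 and 392 CPM at 28 °C against 455 and 437 CPM at 22 °C in mrg1 mrg2 pif4, and 428 and 441 against 478 and 477 CPM in WT.

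The enzymes that trim side chains from xyloglucan were 3. XYL1, an alpha-xylosidase, rose by 0.20 ± 0.05 in mrg1 mrg2 pif4, 0.34 ± 0.05 in mrg1 mrg2, 0.14 ± 0.06 in pif4 and 0.62 ± 0.06 in WT (adjusted p = 0.00569, 5.07e-06, 0.0496 and 1.23e-11). The pif4 libraries had 292 and 323 CPM at 28 °C against 277 and 280 CPM at 22 °C, and those of WT 395 and 408 against 262 and 259 CPM. Its response was smaller than in WT by −0.43 ± 0.08 in mrg1 mrg2 pif4, −0.28 ± 0.08 in mrg1 mrg2 and −0.48 ± 0.08 in pif4 (0.000275, 0.0278 and 7.5e-05). AXY8, an alpha-fucosidase, rose by 0.33 ± 0.07, 0.29 ± 0.07, 0.45 ± 0.07 and 0.50 ± 0.07 in the same order of genotypes. BGAL10, a beta-galactosidase, fell by 0.46 ± 0.08 in mrg1 mrg2 pif4 and 0.25 ± 0.08 in mrg1 mrg2 (2.69e-05 and 0.0185).

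XTH10, XTH21 and XTH28 were called in none of the 18 comparisons. XTH28, known from stamen filaments, stayed between 47.8 and 59.9 CPM in all libraries, and its log2 changes with warmth were −0.07 ± 0.08, −0.05 ± 0.08, −0.07 ± 0.08 and 0.08 ± 0.08. XTH10 had 0.707 to 2.45 CPM and XTH21 2.12 to 5.17 CPM, levels at which the errors were wide (0.45 to 0.53 and 0.29 to 0.31 on the log2 warm change). Part of the XTH21 sequence, 7.82% of its 50-base stretches, occurs also in AT2G12660, so its reads are less certain than those of the 27 members that share no such stretch with another gene.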

How the data were processed

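Whole-seedling RNA was sequenced from a stranded mRNA library kit, per the labels' protocols. The authors deposited whole-number read counts per gene. Per the submitters' processing notes, cutadapt, HISAT2, SAMtools and featureCounts were used with TAIR10, with versions and strand setting not given in the sources used here. Library totals were 7186066 to 11363353 counts, and a floor of 3 counts per library covers counting error only.

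Counts were tested with edgeR 4.0.16 (limma 3.58.1, R 4.3.3): TMM scaling, edgeR's filterByExpr (minimum count 10, minimum total 15), 1 quasi-likelihood fit over all 16 libraries with 8 groups, and Benjamini-Hochberg adjustment over the 20075 genes tested of 33602. The standard error is the log2 change over the square root of F. The fit shares the spread of a gene over all 8 groups, yet before scaling replicates differed more at 28 °C. Before TMM scaling, the mean chi-square per gene between the libraries of a group was 7.12 to 8.9 at 28 °C and 1.79 to 4.15 at 22 °C. That value also takes in differences in scaling between libraries, which TMM is meant to remove. Errors of comparisons at 28 °C may be too small, but the spread after scaling was not compared between temperatures. CPM used TMM library sizes, and RPKM the exonic length in TAIR10.1. The fit was tested on simulated data. Alternatives were DESeq2 1.42.0, RLE scaling, no filter, a replicate block and the omission of each library. Calls lost under them are given for XTH genes only, so calls of marker and xyloglucan list genes stand without that check.

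Values by library are given for the 11 members with an adjusted p under 0.05 and a log2 change of at least 1 in any of 16 planned comparisons with the higher group averaging 5 CPM or more; others are given by ranges, counts or changes, and some were picked after their values were seen. Members and lists were chosen with earlier results of these data known.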

Additional observations from a re-analysis of the deposited data

Results flagged for a closer look

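These values were picked out because the difference between genotypes in a warm response, or the departure of mrg1 mrg2 pif4 from the summed log2 effects of mrg1 mrg2 and pif4, had itself an edgeR adjusted p under 0.05. The warm response of mrg1 mrg2 pif4 minus that of WT was −0.51 for XTH4, −0.38 for XTH7, 0.31 for XTH6, 0.68 for XTH14, 1.44 for XTH12 and 1.70 for XTH13 on the log2 scale. For mrg1 mrg2 minus WT it was −0.25 for XTH4, −0.37 for XTH7, −0.41 for XTH9, 0.30 for XTH6, 0.67 for XTH30, 1.27 for XTH14, 1.63 for XTH26 and 2.54 for XTH13. For pif4 minus WT it was −0.31 for XTH4, −0.39 for XTH16, −0.63 for XTH15, 0.59 for XTH6, 0.66 for XTH32 and 1.33 for XTH14.

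The departure at 28 °C was 0.26 for XTH4, 1.07 for XTH17, 1.11 for XTH24 and 1.18 for XTH15. At 22 °C, in a comparison added after the values were seen, it was 0.21 for XTH4, 0.35 for XTH27, 0.51 for XTH6, 0.57 for XTH15, 0.63 for XTH8, 0.95 for XTH30, 1.16 for XTH24 and 1.44 for XTH17. For XTH12 it was 1.49, for XTH14 1.84, for XTH33 2.42, for XTH13 2.48 and for XTH26 2.66, while XTH9 departed by −0.64. Of the values at 22 °C, that of XTH15 was not called with DESeq2 or without 5 single libraries (adjusted p up to 0.208), that of XTH4 without 6 (up to 0.158), that of XTH8 without pif4 replicate 2 (0.0557) and that of XTH12 without mrg1 mrg2 replicate 2 (0.0629). That of XTH33 was lost under 6 alternatives (up to 0.152).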

How the results depend on the processing

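Of 173 member calls over 18 comparisons, 107 held under each of 20 alternatives, 66 were lost under at least 1 and 0 changed direction. DESeq2 lost 32 calls, RLE scaling 1 and no filter 2. With DESeq2, 4 members differed between mrg1 mrg2 pif4 and mrg1 mrg2 at 28 °C (8 in edgeR) and 3 between the warm responses of pif4 and WT (6 in edgeR); the cause was not tested. Leaving out 1 library at a time gave 3 to 10 members for pif4 against WT at 22 °C, 1 to 4 at 28 °C, and 3 to 8 for mrg1 mrg2 pif4 against mrg1 mrg2 at 28 °C. It gave 3 to 8, 4 to 8 and 3 to 7 members for the warm responses of mrg1 mrg2 pif4, mrg1 mrg2 and pif4 against that of WT. Samples share only a replicate number; with the replicate block, 182 calls were made, 0 were lost and 9 were gained. Members with few reads (XTH10, XTH25 and XTH33) have wide errors at this depth.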
